A study of Mus musculus with 14 samples.

Results

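Messages of 9 serotonin receptor genes (Htr1a, Htr1b, Htr1f, Htr2a, Htr2c, Htr4, Htr5a, Htr6 and Htr7) were followed through bulk RNA sequencing of the mouse anterior cingulate cortex, a midline frontal area. The genes were taken by name, through their Ensembl identifiers in the deposited counts, and they are 9 of 53465 genes in the tables. The 14 libraries fall into 4 groups: AKR/J mice after observational fear conditioning (AKR OFL, 3 libraries), C57BL/6NJ mice after the same procedure (B6N OFL, 3 libraries), naive AKR/J mice (AKR naive, 4 libraries) and naive C57BL/6NJ mice (B6N naive, 4 libraries). In observational fear conditioning a mouse watches another mouse being shocked. The labels name no transgene, drug, age or sex, and no time between conditioning and dissection. They do not state whether each library is a separate mouse, so every p-value here reflects the spread between libraries alone.

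Serotonin reaches the cortex through axons of neurons that lie in the raphe nuclei of the brainstem, so the cortex makes the receptors but not the transmitter. All 9 genes code for receptors that act through G proteins. The products of Htr1a, Htr1b, Htr1f and Htr5a couple to Gi/o, which lowers cyclic AMP. Those of Htr2a and Htr2c couple to Gq/11, which raises phospholipase C activity and calcium, and those of Htr4, Htr6 and Htr7 couple to Gs, which raises cyclic AMP. In the cingulate cortex serotonin receptors sit on pyramidal cells, on inhibitory interneurons and on incoming axons.

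The start regions of 4 of the genes, chosen by their differences, are shown first, and no test below uses these sequences. Htr1a and Htr1b differed between the strains in opposite directions, and Htr1f and Htr6 had the largest differences between OFL and naive libraries in opposite directions. Each window is RefSeq sequence of the build GRCm38.p6 and runs from 250 bases before to 50 bases after the annotated start, 5′ to 3′ on the gene's strand. Capitals mark each CGTG or, on the other strand, CACG. These letters are the core read by bHLH-PAS factors, the family of ARNT2, which the series title names. The windows are chr13:105443443-105443742 on the plus strand for Htr1a and chr9:81633783-81634082 on the minus strand for Htr1b. They are chr16:65105735-65106034 on the minus strand for Htr1f and chr4:139075521-139075820 on the minus strand for Htr6. Htr6 has another annotated start, with a window at chr4:139074740-139075039 on the same strand that is not printed.
Htr1a: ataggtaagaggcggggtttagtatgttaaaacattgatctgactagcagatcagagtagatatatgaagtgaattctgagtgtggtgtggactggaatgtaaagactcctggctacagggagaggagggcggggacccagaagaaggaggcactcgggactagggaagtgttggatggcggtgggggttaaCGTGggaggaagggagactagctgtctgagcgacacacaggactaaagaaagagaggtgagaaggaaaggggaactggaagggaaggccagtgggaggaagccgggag
Htr1b: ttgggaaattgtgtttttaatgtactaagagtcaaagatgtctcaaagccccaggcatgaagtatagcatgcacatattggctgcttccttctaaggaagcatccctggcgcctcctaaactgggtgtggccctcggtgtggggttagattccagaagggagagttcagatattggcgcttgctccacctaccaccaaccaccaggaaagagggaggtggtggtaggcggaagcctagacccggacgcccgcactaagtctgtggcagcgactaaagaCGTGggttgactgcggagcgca
Htr1f: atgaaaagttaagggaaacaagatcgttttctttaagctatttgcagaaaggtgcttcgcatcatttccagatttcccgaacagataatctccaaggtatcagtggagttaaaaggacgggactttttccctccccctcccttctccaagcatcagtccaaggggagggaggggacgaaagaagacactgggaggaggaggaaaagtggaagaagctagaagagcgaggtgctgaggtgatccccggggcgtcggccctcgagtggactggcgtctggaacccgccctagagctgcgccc
Htr6: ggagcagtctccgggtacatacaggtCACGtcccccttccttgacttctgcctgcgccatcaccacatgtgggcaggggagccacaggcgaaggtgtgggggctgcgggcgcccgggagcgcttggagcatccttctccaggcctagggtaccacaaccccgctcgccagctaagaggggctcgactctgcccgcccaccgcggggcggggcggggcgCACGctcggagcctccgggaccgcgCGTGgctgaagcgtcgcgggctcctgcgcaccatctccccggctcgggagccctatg

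The core stood once in the Htr1a window, beginning at base 193 of 300, and once in the Htr1b window, beginning at base 279. The Htr1f window held none. The printed Htr6 window held 3, and the window of the other Htr6 start held 0. Among the other members with a window, Htr5a had 5 matches, Htr7 had 4, Htr2c had 1 and Htr2a had 0; the Htr4 window was not used here. A match is common, since 61.72% of 32851 RefSeq promoter windows of this length held the core on either strand. The longer TCGTG, which contains the core, was found in 16.04% of all windows and among the members in that of Htr2c only. Neither TATAAA, found in 13.62% of all windows, nor the cyclic AMP response element TGACGTCA, found in 1.79%, occurred in any window of these 8 members. The GC box GGGCGG, found in 35.66% of all windows, occurred once each in Htr1a, Htr1f and Htr2a, 3 times in the printed Htr6 window and 0 times in the other. Such matches describe letters of the C57BL/6J reference, and no AKR sequence was used.

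Total counts ran from 13487311 to 14526253 in OFL libraries and from 19073921 to 25780227 in naive libraries, and the members together had 2443 to 4291 counts in a library. The leading principal component (85.4% of the variance) set OFL apart from naive libraries, and the next (8.09%) set AKR apart from B6N. The markers of serotonin neurons (Tph2, Slc6a4, Fev and Gata3) summed to at most 0.910 CPM (counts scaled to library size, with TMM factors over all 14 libraries), and Fev and Gata3 were at 0 in every OFL library. Markers of cortical glutamatergic neurons summed to 2290 to 2510 CPM in AKR OFL, 2230 to 2500 in B6N OFL, 4590 to 4760 in AKR naive and 4640 to 5150 in B6N naive. In tissue of mixed cells, fewer cells of a type and less message per cell cannot be told apart.

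Per kilobase of exon, Htr2a was the most abundant of the 9 messages in all 4 groups, with mean levels of 13.2 CPM per kb in AKR OFL, 12.3 in B6N OFL, 8.23 in AKR naive and 9.28 in B6N naive. Htr5a was the second in each group, at 5.66, 4.87, 5.97 and 5.42 CPM per kb in the same order of groups. The ranges of Htr2a and Htr5a did not overlap in any group. Htr4 was the least abundant in AKR OFL (0.920 CPM per kb), AKR naive (0.309) and B6N naive (0.455), without overlap with its neighbour. In B6N OFL the lowest mean was that of Htr6, at 0.940 CPM per kb, with a range that overlapped that of Htr4 at 1.0.

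The middle of the order differed between strains. In AKR naive, Htr1a (5.06 CPM per kb), Htr6 (4.6) and Htr7 (4.03) followed Htr5a. From Htr5a to Htr7 each range overlapped the next, Htr7 did not overlap Htr2c (2.87), and Htr1b stood in place 7 at 1.83. In B6N naive, Htr1b (3.95), Htr7 (3.74), Htr2c (3.54), Htr6 (3.52) and Htr1a (3.44) followed Htr5a. From Htr1b to Htr1a each range overlapped the next, but Htr5a lay above Htr1b and Htr1a above Htr1f without overlap. In AKR OFL the third place was held by Htr1a (4.64 CPM per kb), and in B6N OFL by Htr1b (4.08). The place of Htr2c depends on the length used: scaled to its longest transcript of 4883 bases and not its 9328 exonic bases, it stood in place 4 in AKR OFL, 3 in B6N OFL, 3 in AKR naive and 2 in B6N naive.

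**Figure D1:**
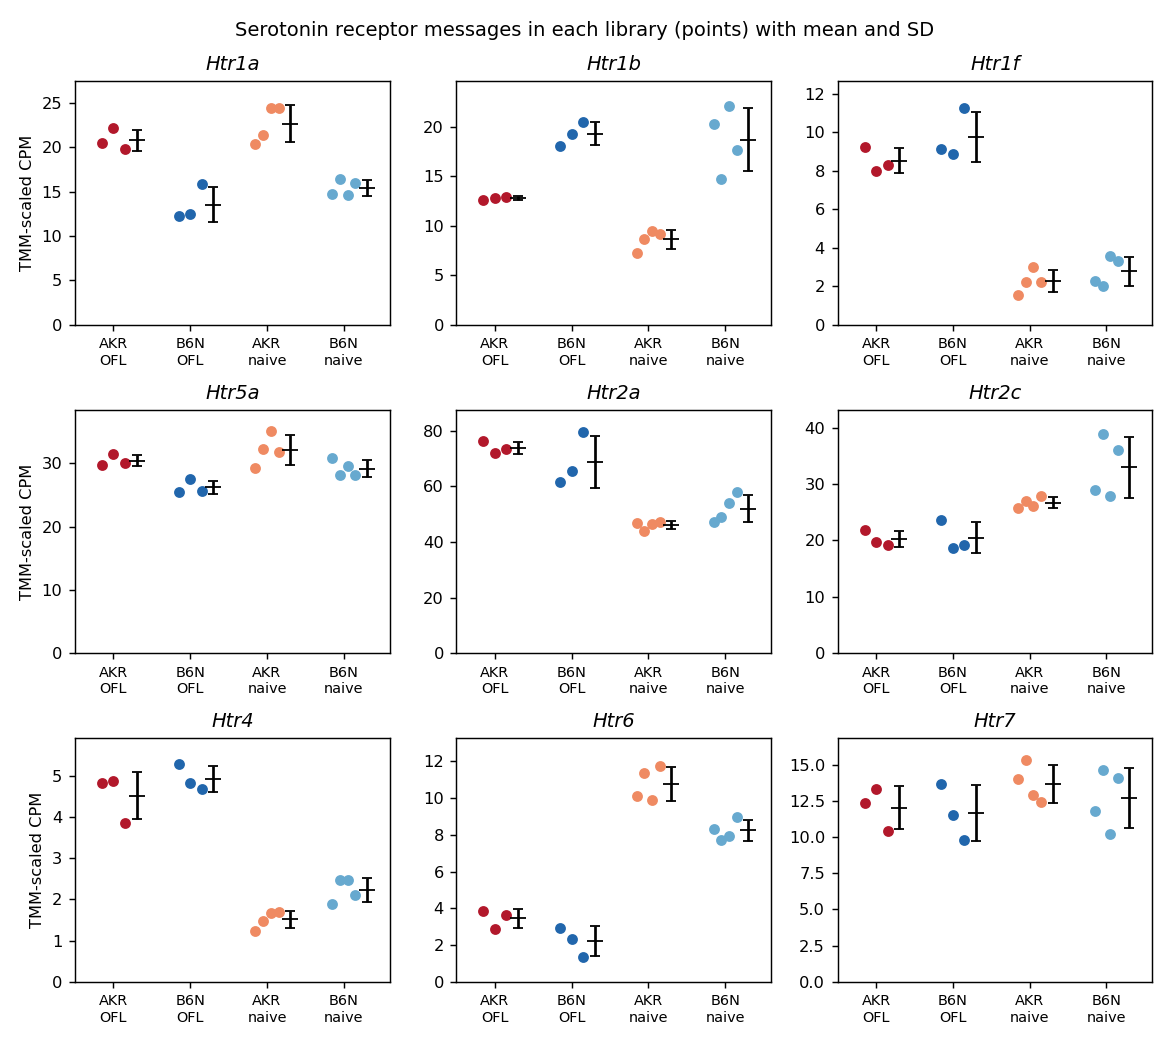
Level of each receptor message (vertical axes, TMM-scaled CPM, starting at 0) in AKR OFL, B6N OFL, AKR naive and B6N naive libraries; points are libraries, and bars give the mean and SD. Htr1a lies higher and Htr1b lower in AKR than in B6N under each condition, Htr1f and Htr4 lie higher and Htr6 lower in OFL than in naive libraries, and Htr7 overlaps across all groups.

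Between naive mice of the strains, 6 of the 9 receptors differed at an adjusted p under 0.05 in edgeR's quasi-likelihood test with Benjamini-Hochberg adjustment over all genes tested: 2 were higher in AKR (Htr1a and Htr6) and 4 were lower (Htr1b, Htr2a, Htr2c and Htr4). The same test called 37.8% of all 17645 genes tested. Of these, 18.3% of the genes tested were higher in AKR and 19.5% were lower. The members' median log2 difference was -0.17, against 0.01 over all genes tested. The libraries of the strains did not overlap for 5 of the 9 members, against 34.7% of all genes.

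After OFL, 3 of the 9 differed: Htr1a and Htr5a were higher in AKR and Htr1b was lower. Here 16.4% of 17994 genes tested were called (7.5% higher and 8.86% lower in AKR), and groups did not overlap for 31.2%, against 3 of the 9 members. Without B6N OFL replicate 2, 1934 genes were called in place of 2943. The members' median log2 difference after OFL was 0.04, against 0.00 over all genes tested. Htr1a and Htr1b were the 2 members called in the same direction in both pairs of groups; of 15915 genes tested in both, 12.8% were.

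**Figure D2:**
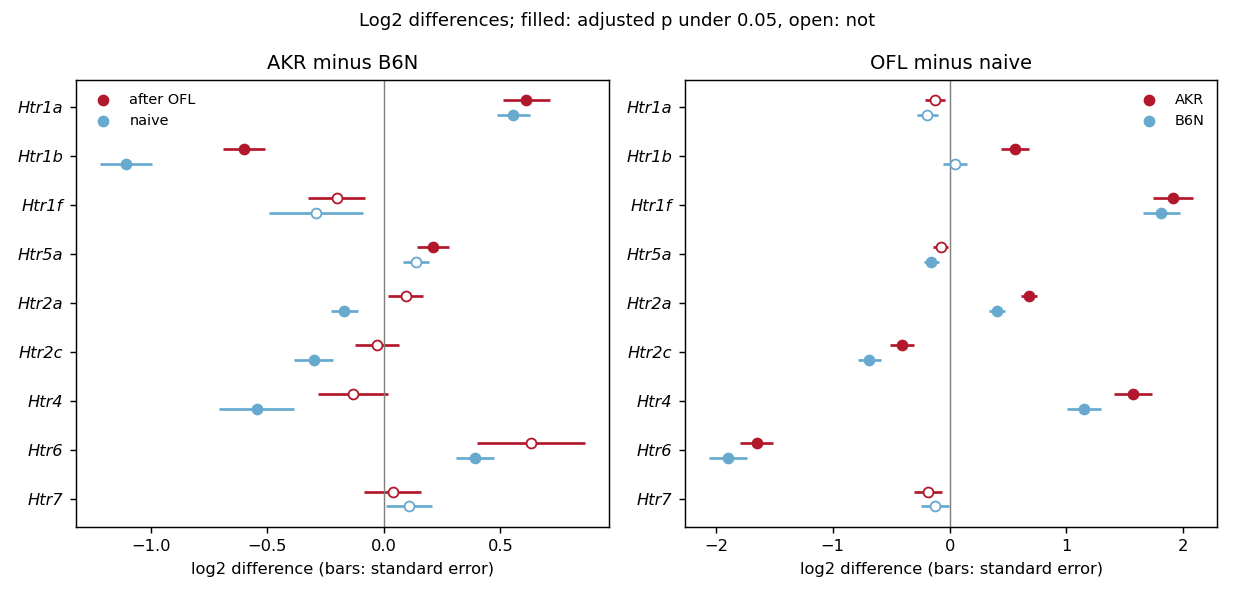
Log2 differences of the 9 receptors, AKR minus B6N on the left (after OFL and naive) and OFL minus naive on the right (AKR and B6N), with standard errors as bars; filled points have an edgeR adjusted p under 0.05. Htr1a and Htr1b lie on opposite sides of 0 in both strain comparisons, and Htr1f and Htr4 on the side opposite to Htr6 in both OFL minus naive comparisons.

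Htr1a (ENSMUSG00000021721) is a gene of 1 exon at chr13:105443639-105448122, and its receptor opens potassium channels and quiets pyramidal and raphe neurons. It measured 20.5, 22.1 and 19.8 CPM in the AKR OFL libraries and 12.3, 12.5 and 15.9 CPM in the B6N OFL libraries. In naive libraries it measured 20.4, 21.4, 24.4 and 24.5 CPM in AKR and 14.7, 16.4, 14.7 and 16 CPM in B6N. Every AKR library was above every B6N library. The difference was 1.53-fold after OFL (log2 difference 0.61, SE 0.10, edgeR adjusted p = 0.000233) and 1.47-fold in naive mice (log2 difference 0.56, SE 0.07, edgeR adjusted p = 6.81e-06). Between conditions Htr1a did not pass in AKR (log2 difference -0.12, SE 0.08, edgeR adjusted p = 0.179) or in B6N (log2 difference -0.19, SE 0.09, edgeR adjusted p = 0.0653). In B6N it did pass, at -0.32 with an edgeR adjusted p of 0.00537, without B6N OFL replicate 3, the highest of its group, and with genes of low count kept (edgeR adjusted p of 0.0217).

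Htr1b (ENSMUSG00000049511) codes for the receptor that sits on axon terminals and restrains transmitter release, on serotonin axons and others. Its level was 12.6, 12.8 and 13 CPM in AKR OFL, against 18.1, 19.3 and 20.5 CPM in B6N OFL. In AKR naive it was 7.28, 8.69, 9.43 and 9.21 CPM, against 20.2, 14.8, 22.1 and 17.6 CPM in B6N naive. All 7 AKR libraries lay below all 7 B6N libraries, and among AKR libraries the OFL ones lay above the naive ones. Htr1b was lower in AKR after OFL (log2 difference -0.60, SE 0.09, edgeR adjusted p = 6.34e-05) and in naive mice (log2 difference -1.11, SE 0.11, edgeR adjusted p = 4.9e-07). It was higher in AKR OFL than in AKR naive (log2 difference 0.56, SE 0.12, edgeR adjusted p = 0.000136), and the B6N difference was 0.05 (SE 0.10, edgeR adjusted p = 0.672). The change in AKR minus the change in B6N, tested as an interaction, was 0.52 (SE 0.16), with an unadjusted p of 0.00284 and an edgeR adjusted p of 0.0536. Without B6N naive replicate 2, the lowest of its group at 14.8 CPM, the interaction was 0.61 with an edgeR adjusted p of 0.004.

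Of the 9 members, Htr1b alone shares exonic sequence with a gene of the opposite strand. At chr9:81628291-81633828, 852 of its 4724 exonic bases (18.0%) lie under exons of D430036J16Rik, at chr9:81631551-81645156 on the plus strand. D430036J16Rik measured 1.19, 1.25 and 1.82 CPM in AKR OFL, against 3.29, 3.71 and 5.31 CPM in B6N OFL. It measured 0.148, 0.127, 0.207 and 0.260 CPM in AKR naive, against 2.63, 2.38, 3.01 and 3.61 CPM in B6N naive. The AKR naive values rest on 3 to 6 counts a library, and all AKR libraries lay below all B6N libraries, as for Htr1b. D430036J16Rik was lower in AKR both after OFL (log2 difference -1.53, SE 0.24, edgeR adjusted p = 0.000114) and in naive mice (log2 difference -3.93, SE 0.26, edgeR adjusted p = 2.49e-09), and it was higher in OFL than in naive libraries of AKR (log2 difference 2.89, SE 0.38, edgeR adjusted p = 1.39e-07). Unlike Htr1b, it was also called higher in OFL libraries of B6N (log2 difference 0.49), with overlapping libraries. Its interaction was called (log2 difference 2.40, SE 0.43, edgeR adjusted p = 0.000786). Whether the counting used strand is not given in the sources used here, and without strand the reads of the shared bases cannot be told apart. The part of this overlap in the Htr1b values was not tested.

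With Htr1a higher and Htr1b lower in AKR, the ratio of their counts within a library, which does not depend on scaling, separated the strains. Htr1a had 1.53 to 1.73 counts for each Htr1b count in AKR OFL and 0.649 to 0.775 in B6N OFL. In AKR naive it had 2.46 to 2.80, and in B6N naive 0.664 to 1.11. The ratio was above 1 in all 7 AKR libraries and below 1 in 6 of the 7 B6N libraries, and within AKR the OFL libraries lay below the naive ones. Since both genes were already called, the ratio is a description and was given no test.

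**Figure D3:**
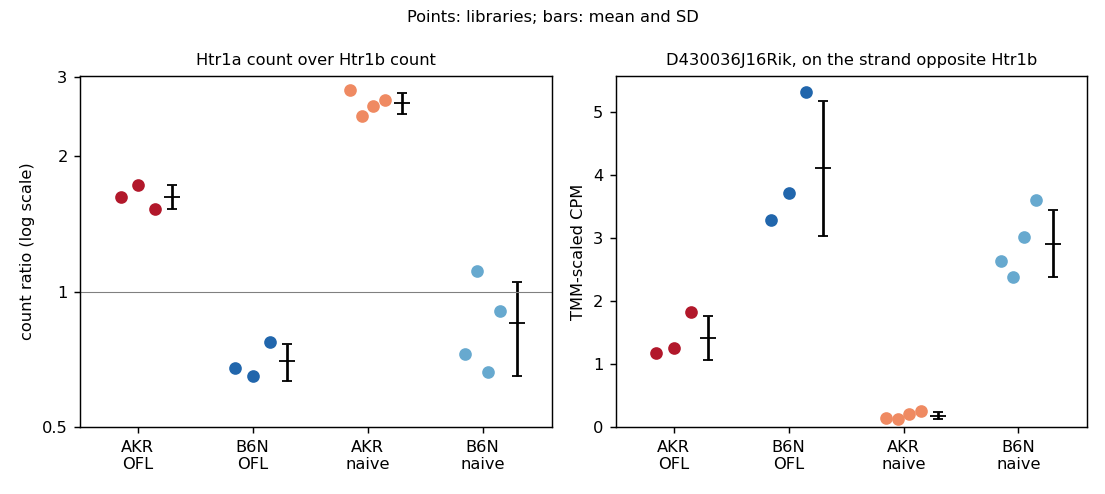
Ratio of Htr1a to Htr1b counts (left, log axis) and level of D430036J16Rik, the gene on the strand opposite Htr1b (right, TMM-scaled CPM), in AKR OFL, B6N OFL, AKR naive and B6N naive libraries; points are libraries and bars give the mean and SD. The ratio is highest in AKR naive (2.46 to 2.80) and D430036J16Rik is lowest there (mean 0.185 CPM).

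Htr1f (ENSMUSG00000050783), at chr16:64924729-65105854 on the minus strand, codes for a Gi/o-coupled receptor known as a target of migraine drugs. It measured 9.27, 8.01 and 8.30 CPM in AKR OFL and 9.12, 8.89 and 11.2 CPM in B6N OFL, against 1.57, 2.25, 3.0 and 2.25 CPM in AKR naive and 2.28, 2.02, 3.56 and 3.31 CPM in B6N naive. In each strain every OFL library was above every naive library, and the strains overlapped within each condition. Htr1f was 3.76-fold higher in OFL than in naive libraries of AKR (log2 difference 1.91, SE 0.17, edgeR adjusted p = 1.34e-10) and 3.51-fold higher in B6N (log2 difference 1.81, SE 0.16, edgeR adjusted p = 8.53e-11). The strain differences did not pass after OFL (log2 difference -0.20, SE 0.12, edgeR adjusted p = 0.303) or in naive mice (log2 difference -0.29, SE 0.20, edgeR adjusted p = 0.277). Counts per library were 32 to 77 in naive and 114 to 159 in OFL libraries.

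Htr5a (ENSMUSG00000039106), at chr5:27842149-27855088, codes for a Gi/o-coupled receptor of forebrain neurons. Its levels lay close together, with 30.4 ± 0.929 CPM in AKR OFL, 26.2 ± 1.10 in B6N OFL (SD, n = 3 each), 32.1 ± 2.39 in AKR naive and 29.2 ± 1.30 in B6N naive (SD, n = 4 each). After OFL it was higher in AKR (log2 difference 0.21, SE 0.07, edgeR adjusted p = 0.0455), without overlap of the libraries. This call ended when any 1 of the 6 libraries was left out (edgeR adjusted p of 0.0725 to 0.144), with genes of low count kept (0.0697), with the replicate block (0.0537) and under DESeq2 (adjusted p of 0.207). The naive strain difference did not pass (log2 difference 0.14, SE 0.06, edgeR adjusted p = 0.0626), but it did without AKR naive replicate 1 (edgeR adjusted p of 0.0186) or B6N naive replicate 1 (0.0448) and with upper-quartile factors (0.0435). In B6N, Htr5a was lower in OFL than in naive libraries (log2 difference -0.16, SE 0.06, edgeR adjusted p = 0.0286). That call was lost without B6N naive replicate 1, B6N OFL replicate 1 or B6N OFL replicate 3 (edgeR adjusted p of 0.0916, 0.0869 and 0.0855) and under DESeq2 (adjusted p of 0.147). It was also lost with other scaling factors, RLE (-0.12, edgeR adjusted p of 0.0944) or upper-quartile (-0.10, edgeR adjusted p of 0.161). With protein-coding genes only it was -0.04, with an edgeR adjusted p of 0.58.

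Htr2a (ENSMUSG00000034997), at chr14:74640840-74709494, codes for the Gq/11-coupled receptor of cortical pyramidal cells through which psychedelic drugs act. It measured 76.2, 71.8 and 73.4 CPM in AKR OFL and 61.5, 65.5 and 79.3 CPM in B6N OFL, against 46.9, 44.1, 46.4 and 47.3 CPM in AKR naive and 47.3, 48.9, 54.0 and 57.9 CPM in B6N naive. The OFL libraries were above the naive ones in each strain. Htr2a was higher in OFL than in naive libraries of AKR by 0.68 on the log2 scale (SE 0.07, edgeR adjusted p = 1.56e-09) and of B6N by 0.40 (SE 0.07, edgeR adjusted p = 8.25e-06). Between strains it was slightly lower in AKR in naive mice (log2 difference -0.17, SE 0.06, edgeR adjusted p = 0.0257), with overlapping libraries. That call ended without AKR naive replicate 2, B6N naive replicate 3 or B6N naive replicate 4 (edgeR adjusted p of 0.0785, 0.0766 and 0.112) and with libraries thinned to 1 total (0.0536). After OFL the difference did not pass (log2 difference 0.09, SE 0.08, edgeR adjusted p = 0.469), although without B6N OFL replicate 3 it was 0.21 with an edgeR adjusted p of 0.0208. The interaction was 0.27 (SE 0.10, unadjusted p = 0.0102, edgeR adjusted p = 0.119) and, without B6N OFL replicate 3, 0.39 with an edgeR adjusted p of 0.0102.

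Htr2c (ENSMUSG00000041380), at chrX:146962513-147197277, codes for the other Gq/11-coupled member, whose message is edited by adenosine deaminases. It measured 21.8, 19.7 and 19.1 CPM in AKR OFL and 23.7, 18.6 and 19.2 CPM in B6N OFL, against 25.8, 27.1, 26.1 and 27.9 CPM in AKR naive and 29.0, 39.0, 27.9 and 36.1 CPM in B6N naive. OFL libraries lay below naive libraries in each strain, in AKR (log2 difference -0.40, SE 0.10, edgeR adjusted p = 8e-04) and in B6N (log2 difference -0.69, SE 0.10, edgeR adjusted p = 5.4e-07). In naive mice Htr2c was lower in AKR (log2 difference -0.30, SE 0.08, edgeR adjusted p = 0.00907), and the libraries of the strains did not overlap, the highest of AKR (27.86 CPM) lying just under the lowest of B6N (27.90 CPM). After OFL the strain difference was -0.03 (SE 0.10, edgeR adjusted p = 0.885), and the interaction did not pass (log2 difference 0.28, SE 0.14, edgeR adjusted p = 0.317).

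The choroid plexus is rich in Htr2c, and its 6 markers were summed as a check. They came to 1.78 to 2.98 CPM in AKR OFL, 2.52 to 3.70 in B6N OFL, 3.20 to 5.21 in AKR naive and 3.78 to 5.68 in B6N naive. Most of these sums was Kl, which averaged 1.993, 2.766, 2.963 and 3.475 CPM in the same order of groups. Transthyretin (Ttr), the defining message of that tissue, averaged at most 0.856 CPM in any group. It was lower in OFL libraries in AKR (log2 difference -2.67, edgeR adjusted p = 0.00151) and in B6N (-4.83, edgeR adjusted p = 1.93e-05). These sizes are uncertain, since Ttr had 0 to 2 counts a library in AKR OFL and 0 to 1 in B6N OFL. The part of Ttr in the Htr2c difference was not tested. With Htr2a higher and Htr2c lower in OFL libraries, Htr2a had 3.49 to 3.84 counts for each Htr2c count in AKR OFL, against 1.63 to 1.82 in AKR naive. In B6N OFL it had 2.60 to 4.14, against 1.26 to 1.93 in B6N naive.

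Htr4 (ENSMUSG00000026322), at chr18:62324204-62496577, codes for a Gs-coupled receptor that raises excitability. It had 25 to 77 counts a library. It measured 4.82, 4.88 and 3.86 CPM in AKR OFL and 5.28, 4.83 and 4.67 CPM in B6N OFL, against 1.23, 1.48, 1.66 and 1.69 CPM in AKR naive and 1.89, 2.47, 2.47 and 2.1 CPM in B6N naive. Every OFL library was above every naive library, 2.97-fold on the fitted scale in AKR (log2 difference 1.57, SE 0.16, edgeR adjusted p = 1.81e-09) and 2.22-fold in B6N (log2 difference 1.15, SE 0.15, edgeR adjusted p = 8.67e-08). In naive mice it was lower in AKR (log2 difference -0.55, SE 0.16, edgeR adjusted p = 0.0131), a call that DESeq2 did not make (adjusted p of 0.059) and that thinning the libraries to 1 total ended (edgeR adjusted p of 0.101). After OFL the strains overlapped (log2 difference -0.13, SE 0.15, edgeR adjusted p = 0.629).

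Htr6 (ENSMUSG00000028747), at chr4:139061108-139075570 on the minus strand, codes for a Gs-coupled receptor that gathers in neuronal primary cilia. It measured 3.86, 2.86 and 3.64 CPM in AKR OFL and 2.95, 2.31 and 1.34 CPM in B6N OFL, against 10.1, 11.4, 9.89 and 11.8 CPM in AKR naive and 8.34, 7.69, 7.95 and 8.97 CPM in B6N naive. Every OFL library lay below every naive library, and in naive mice every AKR library lay above every B6N library. Htr6 was lower in OFL libraries in AKR (to 0.319 of the naive level; log2 difference -1.65, SE 0.14, edgeR adjusted p = 4.57e-11) and in B6N (to 0.268; log2 difference -1.90, SE 0.16, edgeR adjusted p = 3.22e-11). It was higher in AKR than in B6N in naive mice (log2 difference 0.39, SE 0.08, edgeR adjusted p = 0.00109). After OFL the difference did not pass (log2 difference 0.63, SE 0.23, edgeR adjusted p = 0.0716), with 19 to 52 counts in a library. Without B6N OFL replicate 3, the lowest of its group, the difference was 0.38 with an edgeR adjusted p of 0.301. It passed without AKR OFL replicate 2 (0.75, edgeR adjusted p of 0.0499) or B6N OFL replicate 1 (0.90, edgeR adjusted p of 0.0128), and without any 1 of the other 3 libraries the adjusted p was 0.165 to 0.221. It also passed with genes of low count kept (edgeR adjusted p of 0.0202), in 1 fit of all 14 libraries (0.0387) and with the replicate block (0.0474), but not under DESeq2 (adjusted p of 0.254).

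Htr7 (ENSMUSG00000024798), at chr19:35958734-36057507 on the minus strand, codes for the Gs-coupled receptor linked to circadian timing. It passed in none of the comparisons in edgeR's quasi-likelihood test. It averaged 12.1 ± 1.51 CPM in AKR OFL, 11.7 ± 1.91 in B6N OFL (SD, n = 3 each), 13.7 ± 1.29 in AKR naive and 12.7 ± 2.07 in B6N naive (SD, n = 4 each). Its log2 differences were 0.04 (SE 0.12) between strains after OFL, 0.11 (SE 0.10) in naive mice, -0.18 (SE 0.12) between conditions in AKR and -0.12 (SE 0.12) in B6N. The only call appeared between conditions in AKR when genes of low count were kept (edgeR adjusted p of 0.0489).

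Between conditions, 6 of the 9 members were called in each strain. In AKR 4 were higher after OFL (Htr1b, Htr1f, Htr2a and Htr4) and 2 were lower (Htr2c and Htr6); in B6N 3 were higher (Htr1f, Htr2a and Htr4) and 3 were lower (Htr2c, Htr5a and Htr6). Of 20291 genes tested, 78.7% were called in AKR (39.8% higher and 38.8% lower after OFL) and 78.4% in B6N (40% higher and 38.4% lower). The 6 of 9 members called in each strain lie near these shares. Libraries of the conditions did not overlap for 6 of 9 members in each strain, against 76.7% of all genes in each. The members' median log2 difference was -0.08 in AKR and -0.12 in B6N, against -0.01 and 0.00 over all genes. Htr1f, Htr2a and Htr4 (higher) and Htr2c and Htr6 (lower) were called in the same direction in both strains, 5 of 9, against 70.7% of all genes.

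Each condition was deposited as its own count table, and condition and table cannot be told apart in any OFL minus naive value. The tables also differ in genes that lie outside the receptors: Gnas, which codes for the Gs alpha subunit, averaged 608 ± 17.2 CPM in AKR OFL, 562 ± 6.42 in B6N OFL (SD, n = 3 each), 60.6 ± 9.92 in AKR naive and 54.6 ± 5.39 in B6N naive (SD, n = 4 each). Slc18a2, the vesicular monoamine transporter, had 0 to 4 counts in an OFL library, against averages of 5.01 ± 0.271 CPM in AKR naive and 5.58 ± 0.345 CPM in B6N naive (SD, n = 4 each). Of the exonic bases of Gnas, 22.0% lie under exons of the opposite strand, and of those of Slc18a2, 2.12%. The part of the tables' making in the receptor values was not tested.

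None of the 9 members had a called interaction, against 5.15% of all genes tested, in edgeR's quasi-likelihood test. At an unadjusted p under 0.05 there were 2, Htr1b and Htr2a, and DESeq2 also called 0. The members' median interaction was 0.25 on the log2 scale, against 0.01 over all genes, and 8 of the 9 were above 0. A strain difference called in naive mice and missed after OFL, as for Htr2a, Htr2c, Htr4 and Htr6, was therefore not shown to differ between conditions.

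Grouped by G protein, the Gs-coupled members took a smaller share of the summed level per kb in OFL than in naive libraries. They made up 15.8% ± 0.865 of it in AKR OFL and 15.2% ± 3.29 in B6N OFL (SD, n = 3 each), against 26.5% ± 1.83 in AKR naive and 22.4% ± 1.65 in B6N naive (SD, n = 4 each). The Gq/11-coupled members made up 40.8% ± 1.04 in AKR OFL, 40.6% ± 2.23 in B6N OFL, 32.9% ± 1.41 in AKR naive and 37.2% ± 1.82 in B6N naive. The Gi/o-coupled members held 43.4%, 44.2%, 40.6% and 40.4% in the same order of groups, within ranges that overlapped. Htr2a alone took 35.0% in AKR OFL and 34.4% in B6N OFL, against 24.4% in AKR naive and 26.9% in B6N naive, and Htr6 took 3.92% and 2.67%, against 13.6% and 10.2%. Members of a class did not move together. Htr4, also Gs-coupled, took 2.45% and 2.83%, against 0.911% and 1.32%, and Htr7 took 9.43% and 9.71%, against 11.9% and 10.8%. Htr2c, also Gq/11-coupled, took 5.76% and 6.19%, against 8.48% and 10.3%. The summed level of all 9 was 37.6 ± 1.02 CPM per kb in AKR OFL, 35.6 ± 1.75 in B6N OFL, 33.8 ± 1.25 in AKR naive and 34.4 ± 1.41 in B6N naive. These shares are descriptions over chosen genes and were given no test, and they change with the length used. With no length scaling the Gs share was 10.7% in AKR OFL and 10.7% in B6N OFL, against 15.8% in AKR naive and 13.3% in B6N naive. It then ran from 8.46 to 12.7% in B6N OFL libraries, overlapping the 12 to 14.3% of B6N naive libraries, while the AKR ranges stayed apart.

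**Figure D4:**
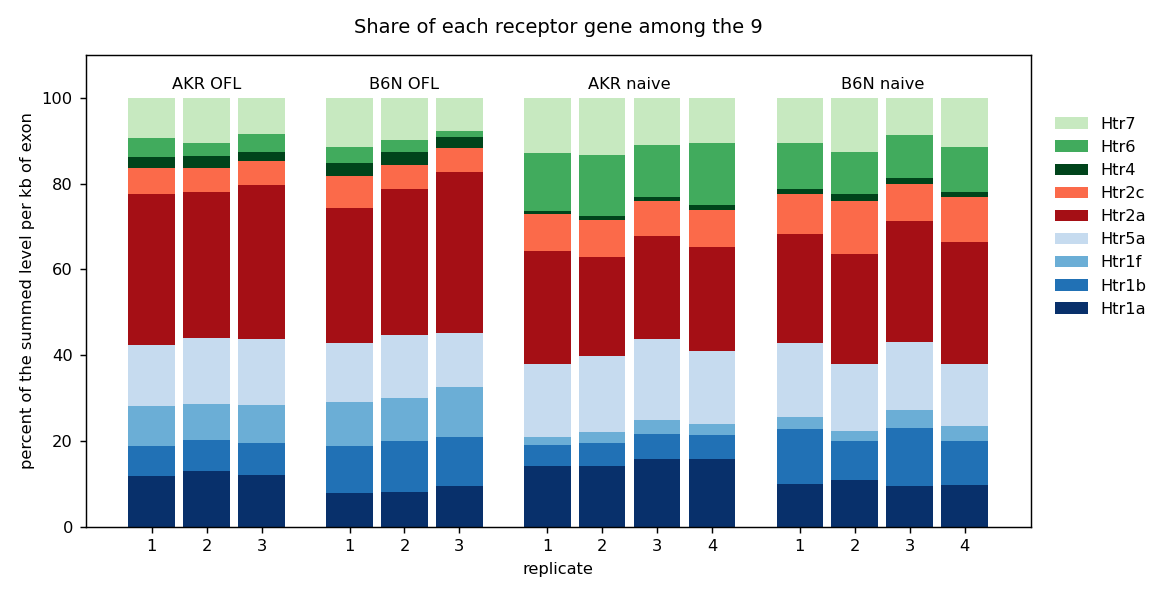
Share of each receptor gene in the summed level per kb of exon (vertical axis, percent), 1 bar per library, in AKR OFL, B6N OFL, AKR naive and B6N naive; blue marks Gi/o-coupled, red Gq/11-coupled and green Gs-coupled members. Htr6 narrows and Htr2a and Htr1f widen in OFL bars, and Htr1a exceeds Htr1b in AKR bars.

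Other libraries and cell types moved beside these results. B6N OFL replicate 3 had the highest Htr1a, Htr1b, Htr1f and Htr2a of its group and the lowest Htr4, Htr6 and Htr7. All 5 layer 6 markers tested were lower in AKR after OFL, against 8.86% of all genes, with sums of 153 to 164 CPM in AKR OFL and 203 to 237 in B6N OFL, and sums of 115 to 165 in AKR naive and 154 to 211 in B6N naive. In naive mice 2 of the 5 were lower in AKR, against 19.5% of all genes. Between conditions 3 were higher and 1 lower after OFL in AKR, and 4 were higher and 1 lower in B6N. The shares over all genes were 78.7% called in AKR and 78.4% in B6N. Striatal projection neurons are rich in Htr1b, Htr4 and Htr6; their 8 markers summed to 215 to 224 CPM in AKR OFL, 206 to 223 in B6N OFL, 180 to 205 in AKR naive and 221 to 239 in B6N naive, and 3 of 8 were lower in AKR naive than in B6N naive, against 19.5% of all genes. Somatostatin interneuron markers summed to 99.3 to 109 CPM in AKR OFL and 86.8 to 90.4 in B6N OFL. In naive libraries they summed to 227 to 255 in AKR and 226 to 235 in B6N. Hippocampal markers summed to 97.3 to 110, 87.6 to 92.1, 213 to 244 and 198 to 239 CPM in the same order of groups. All 4 pan-GABAergic markers were called lower after OFL in each strain, against 38.8% of all genes in AKR and 38.4% in B6N. The part of these markers in the receptor differences was not tested.

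Of the 5 other serotonin receptor genes with a row in the tables, Htr3a and Htr5b passed the filter on low counts. Htr3a codes for the subunit of the serotonin-gated ion channel, which marks a class of cortical interneurons. It measured 3.04, 2.44 and 4.15 CPM in AKR OFL and 6.72, 7.28 and 6.58 CPM in B6N OFL, against 5.46, 6.87, 5.08 and 7.27 CPM in AKR naive and 10.1, 12.3, 12.8 and 10.9 CPM in B6N naive. The AKR libraries lay below the B6N libraries under each condition, after OFL (log2 difference -1.11, SE 0.17, edgeR adjusted p = 8.68e-05) and in naive mice (log2 difference -0.88, SE 0.11, edgeR adjusted p = 6.7e-06), and OFL libraries lay below naive ones in AKR (log2 difference -0.96, SE 0.17, edgeR adjusted p = 1.14e-05) and in B6N (log2 difference -0.74, SE 0.13, edgeR adjusted p = 1e-05). Markers of VIP and 5-HT3A interneurons were lower in AKR naive for 3 of 5 (Npy2r, Vip and Crh), against 19.5% of all genes. Their sums were 315 to 370 CPM in AKR naive and 359 to 391 in B6N naive, and their part was not tested. After OFL 1 of 5 was lower in AKR (Npy2r), against 8.86% of all genes, with sums of 221 to 248 in AKR OFL and 228 to 257 in B6N OFL.

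Htr5b, whose human counterpart makes no working receptor, averaged 0.814 ± 0.205 CPM in AKR OFL, 1.12 ± 0.384 in B6N OFL (SD, n = 3 each), 1.21 ± 0.132 in AKR naive and 2.69 ± 0.633 in B6N naive (SD, n = 4 each). It was lower in AKR naive than in B6N naive (log2 difference -1.14, SE 0.19, edgeR adjusted p = 0.000151) and lower in OFL than in naive libraries of B6N (log2 difference -1.27, SE 0.24, edgeR adjusted p = 3.3e-05), and after OFL the strain difference did not pass (log2 difference -0.45, SE 0.33, edgeR adjusted p = 0.408). Htr1d, Htr2b and Htr3b did not pass the filter and were given no test. Htr2b had 0 to 1 counts in an OFL library (0 to 0.0728 CPM), against 4 to 13 in a naive library (0.207 to 0.585 CPM), and these ranges did not overlap. Htr1d had 1 to 5 counts in a library and Htr3b 0 to 1.

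Genes that make, move or break down serotonin were counted next to the receptors. In naive mice 2 of 7 tested were higher in AKR and 2 were lower, where 18.3% of all genes were higher and 19.5% lower. Maoa, the monoamine oxidase that prefers serotonin, averaged 37.7 ± 1.03 CPM in AKR naive and 30.7 ± 1.54 in B6N naive (SD, n = 4 each; log2 difference 0.30, SE 0.05, edgeR adjusted p = 8.88e-05). Its partner enzyme Maob averaged 21.1 ± 1.73 CPM in AKR naive and 30.4 ± 1.28 in B6N naive (log2 difference -0.52, SE 0.06, edgeR adjusted p = 2.05e-06). The low-affinity uptake carrier Slc22a3 was higher in AKR (log2 difference 1.16, SE 0.14, edgeR adjusted p = 6.23e-06) and Ddc, which makes serotonin from its precursor, was lower (log2 difference -0.42, SE 0.12, edgeR adjusted p = 0.0122).

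After OFL 1 of 5 tested in this list was called, against 16.4% of all genes, and it was Maob, again lower in AKR (log2 difference -0.76, SE 0.09, edgeR adjusted p = 7.38e-06). The Maoa difference after OFL was -0.03 (SE 0.07, edgeR adjusted p = 0.848), and the interaction of Maoa was called (log2 difference -0.31, SE 0.08, edgeR adjusted p = 0.016). Between conditions 4 of 7 were lower and none higher in AKR, and 3 were lower and 1 higher in B6N, against 78.7% and 78.4% of all genes called in either direction. Slc18a2 was lower in AKR OFL than in AKR naive (log2 difference -5.99, SE 0.36, edgeR adjusted p = 3.16e-14) and Slc29a4, a monoamine carrier of the plasma membrane, was too (log2 difference -1.74, SE 0.16, edgeR adjusted p = 1.03e-10). In B6N both were lower as well, at -5.81 (SE 0.33) and -2.02 (SE 0.17). The list's median log2 difference was 0.23 in naive mice, -0.03 after OFL, -0.91 between conditions in AKR and -0.32 in B6N. Tph2, the enzyme of serotonin neurons, had 2 to 16 counts in a library.

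Of 22 G proteins and effectors, 5 were higher and 6 lower in AKR in naive mice, and 1 was higher and 2 lower after OFL. These 11 and 3 calls of 22 stand against 37.8% of all genes in naive mice and 16.4% after OFL. Kcnj9, a subunit of the potassium channel that Gi/o-coupled receptors open, averaged 123 ± 6.13 CPM in AKR OFL and 160 ± 3.51 in B6N OFL (SD, n = 3 each; log2 difference -0.38, SE 0.05, edgeR adjusted p = 9.36e-06). In naive mice it averaged 163 ± 5.40 CPM in AKR and 215 ± 5.13 in B6N (SD, n = 4 each; log2 difference -0.40, SE 0.03, edgeR adjusted p = 6.71e-08). Kcnj6, another subunit, was lower in AKR in naive mice (log2 difference -0.28, SE 0.05, edgeR adjusted p = 0.000423) and its interaction was called (log2 difference 0.32, SE 0.08, edgeR adjusted p = 0.0151). Itpr1, the calcium release channel that acts after Gq/11, was slightly higher in AKR after OFL (log2 difference 0.16, SE 0.04, edgeR adjusted p = 0.00484). The list's median was 0.03 in naive mice and 0.00 after OFL. Between conditions 12 were higher and 8 lower in AKR, and 13 were higher and 8 lower in B6N, against 78.7% of all genes called in AKR and 78.4% in B6N. Gnas led in both, at 3.32 in AKR and 3.37 in B6N, followed by Gnai2 at -1.80 and -1.65.

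Among 13 receptor partners and regulators, 1 was higher and 3 were lower in AKR in naive mice, and 1 was higher and 2 lower after OFL. Of all genes, 37.8% were called in naive mice and 16.4% after OFL, so 4 and 3 of 13 lie near the shares over all genes. S100a10, also called p11, binds the Htr1b and Htr4 receptors and brings them to the cell surface. It measured 10.8, 10.7 and 10.6 CPM in AKR OFL, against 12.8, 15.3 and 15.2 CPM in B6N OFL. In naive libraries it measured 12.6, 12.7, 11.5 and 13.2 CPM in AKR, against 21.1, 19.5, 20.6 and 18.0 CPM in B6N. Every AKR library was below every B6N library of its condition, after OFL (log2 difference -0.44, SE 0.10, edgeR adjusted p = 0.00479) and in naive mice (log2 difference -0.66, SE 0.07, edgeR adjusted p = 5.94e-07). Grk3, a kinase that turns off active receptors, was lower in AKR after OFL (log2 difference -0.20, SE 0.05, edgeR adjusted p = 0.00428) and in naive mice (log2 difference -0.27, SE 0.04, edgeR adjusted p = 1.45e-05), and the Htr2c-editing deaminase Adarb1 was higher in AKR after OFL (log2 difference 0.19, SE 0.05, edgeR adjusted p = 0.00801). The list's median was -0.02 in naive mice and 0.02 after OFL, and between conditions 4 were higher and 7 lower in each strain, against 78.7% of all genes called in AKR and 78.4% in B6N.

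For the 7 members called in a strain comparison, the genes most alike over the 14 libraries were found by the Euclidean distance of log2 CPM centred on each gene's mean, among 11468 named genes of at least 5 CPM. The nearest was Cmpk2 for Htr1a (distance 0.522), Smyd3 for Htr1b (0.618), Rab27b for Htr2a (0.343) and Kndc1 for Htr2c (0.465). It was Hist1h1c for Htr4 (0.425), Rnf145 for Htr5a (0.216) and Scrt1 for Htr6 (0.673). These distances are descriptions over 14 libraries that share strain, condition and depth, and a gene that varies little, such as Htr5a, lies near many others.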

How the data were processed

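The authors deposited raw counts per Ensembl gene in 2 tables, by condition, which were analysed here. Per the submitters' processing notes, the build was GRCm38 and the tools were TopHat2 2.1.1, HTSeq, CASAVA, edgeR and cutadapt 2.7, and per the labels' protocols total RNA was prepared with a TruSeq RNA v2 kit. The annotation release, the strand setting of the counting and what a replicate number stands for are not given in the sources used here. The authors' CPM tables of single samples were not used. GRCm38 is a C57BL/6J genome, so AKR reads were aligned to another strain's sequence.

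GENCODE annotation of GRCm38 gave symbols, positions, exon lengths and opposite-strand exons (bedtools 2.31.1), and 53360 of 53465 identifiers had a symbol. No columns of other samples were present. Counts were tested with edgeR 4.0.16 in R 4.3.3 (filter on expression by group, TMM factors, quasi-likelihood F-test, two-sided, Benjamini-Hochberg adjustment over all genes tested, called under 0.05). For AKR minus B6N, each condition had its own fit. OFL minus naive differences and the interaction came from 1 fit of all 14 libraries. The biological coefficient of variation common to all genes was 0.0456 in OFL, 0.0446 in naive and 0.0450 in all libraries, and p-values cover that spread only. Levels are CPM scaled by TMM over all 14 libraries. Genes were compared per kilobase of exon union. The scripts were tested on simulated counts.

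All 9 members were named in every comparison. From the lists of other genes, called members with the smallest p were named, and D430036J16Rik was added after its values were seen. The members and lists were chosen with earlier results of these data known. Alternatives were DESeq2 1.42.0, RLE and upper-quartile factors, no filter on low counts, protein-coding genes only, genes without opposite-strand exons, each library left out in turn, a replicate block, other sets of libraries in the fit, and other lengths. Thinning of all libraries to 13487311 counts was chosen after seeing the data.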

Additional observations from a re-analysis of the deposited data

Results flagged for a closer look

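The interaction of strain and condition was called in edgeR's quasi-likelihood test for 5 genes that stand beside the receptors. D430036J16Rik, on the strand opposite Htr1b, had a change in AKR minus change in B6N of 2.40 on the log2 scale (edgeR adjusted p = 0.000786). Maoa had -0.31 (edgeR adjusted p = 0.016), and Kcnj6 had 0.32 (edgeR adjusted p = 0.0151). The striatal marker Pde10a had 0.55 (edgeR adjusted p = 0.000973), with 130 ± 0.922 CPM in AKR OFL, 120 ± 6.41 in B6N OFL (SD, n = 3 each), 76.4 ± 5.71 in AKR naive and 103 ± 14.2 in B6N naive (SD, n = 4 each). It was the only 1 of the 8 striatal markers with a called interaction, where 5.15% of all genes were called. The median interaction of the 8 was 0.10. Between conditions 2 of the 8 were called higher, Pde10a among them, and 5 lower in OFL libraries of each strain. The thalamic marker Prkcd had 0.62 (edgeR adjusted p = 0.009), with 7.24 ± 0.193 CPM in AKR OFL, 6.82 ± 0.492 in B6N OFL, 10.8 ± 0.898 in AKR naive and 15.5 ± 1.25 in B6N naive. The sum of the 4 thalamic markers went the other way. It was 188 to 212 CPM in AKR OFL and 204 to 217 in B6N OFL. In naive libraries it was 89 to 104 CPM in AKR and 94.1 to 112 in B6N. Of the 4, 2 were called higher and 1 lower in OFL libraries of each strain, where 78.7% of all genes were called in AKR and 78.4% in B6N.

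A library stood apart from the other 3 of its group for Htr3b, with 0.0424 CPM in AKR naive replicate 2 and 0.0393 CPM in B6N naive replicate 1, while the others of both groups were at 0. Each value is a single read. Dixon's test was applied to 28 groups of 4 libraries, and for continuous values chance flags about 1 in 20. That rate does not hold here. A group with reads in 1 library and 0 in the others is always flagged, since the gap then equals the range.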

How the results depend on the processing

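The calls of Htr1a and Htr1b between strains, and of Htr1f, Htr2a, Htr2c, Htr4 and Htr6 between conditions, kept their direction and side of the threshold under every alternative that gave a value. Of the members' tested values with 1 library left out, 470 kept theirs, 8 gained a call, 12 lost one and 14 reversed. Of the other alternatives 369 kept theirs, 9 gained, 10 lost and 3 reversed.

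The members called with 1 library left out numbered 5 to 7 between naive strains, 2 to 3 after OFL, 6 to 6 between conditions in AKR, 5 to 6 in B6N and 0 to 1 for the interaction. Over all genes they numbered 1934 to 3514 after OFL and 732 to 1273 for the interaction. The interaction called 2 members with no filter on low counts (Htr1b 0.52, edgeR adjusted p = 0.00287; Htr2a 0.28, edgeR adjusted p = 0.0184). With only genes free of opposite-strand exons it called 695 of 14591 genes, fewer having been tested, against 1044; Htr1b has no value there.

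Deviations of same-numbered libraries of the strains correlated at -0.121 to 0.077 in naive and -0.07 to 0.128 in OFL libraries. Differently numbered ones correlated at -0.11 to 0.123 in naive and -0.188 to 0.146 in OFL libraries. These values show no pairing by replicate number, but they cannot exclude one. With the replicate block the interaction called 1 member (Htr1b 0.505, edgeR adjusted p = 0.0421), Htr5a after OFL was lost (edgeR adjusted p = 0.0537) and Htr6 after OFL was gained (edgeR adjusted p = 0.0474).

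Reversed values were all uncalled. Htr5a between conditions in AKR was 0.0428 with protein-coding genes only, a setting that moved the median of all genes by 0.12, and Htr7 with thinned libraries was -0.0283 between naive strains and 0.0783 in the interaction. With 1 library left out, Htr7 ran from -0.066 to 0.162 and Htr2c from -0.097 to 0.0842 after OFL, and Htr1b from -0.0491 to 0.131 between conditions in B6N. In the interaction Htr1a ran from -9e-04 to 0.19, Htr1f from -0.0326 to 0.244, Htr6 from -0.005 to 0.52 and Htr7 from -0.17 to 0.0675.

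Thinning ended the naive calls of Htr2a (edgeR adjusted p = 0.0536) and Htr4 (0.101). Scaled to the longest transcript, 20 of 36 places in the order of levels were kept. The Gq/11 share became 43.4% in AKR OFL, 43.4% in B6N OFL, 37.4% in AKR naive and 42.2% in B6N naive, and with no length scaling 50.4%, 50.4%, 44.3% and 48.7%. The Gs share was 15.7%, 15.1%, 25.3% and 21.1% by the longest transcript and 10.7%, 10.7%, 15.8% and 13.3% with no length scaling. Htr5a between conditions in B6N was -0.04 with protein-coding genes only, against -0.16. The causes were not tested. Depth limits Htr4, Htr1f and Htr6, with under 100 counts in some libraries.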
